A study of Mus musculus with 48 samples.

Results

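The mRNAs of 45 proteins of the cytosolic large (60S) ribosomal subunit were followed in mPDAC cells, a mouse pancreatic ductal adenocarcinoma line, treated or not with N6L, a synthetic pseudopeptide antagonist of nucleolin. The members were chosen by gene symbol as the core 60S proteins with a protein-coding locus of their own, and all 45 were matched to Ensembl identifiers among the 50600 genes listed in the count files. The study compared cells exposed to 50 µM N6L for 48 h (cultures 1, 2 and 3) with non-treated cells (cultures 1, 2 and 4), and sequenced polyA+ RNA from the cytoplasm and from the pooled polysomal fractions of a sucrose gradient of each culture. Per the labels, the cells have an FVB/N x C57BL6 genetic background and an age of 8 weeks is given, which all groups share. The model is a single cell line in culture, cells were incubated with emetine before lysis in every group, and counts of the 4 technical replicates of each library were summed, which left 12 libraries of 19519911 to 44972333 counts. The labels number the cultures but do not say whether they were grown on separate days, so p-values measure the spread between these cultures.

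The 60S subunit carries the peptidyl transferase centre, the tunnel through which the nascent chain leaves, the acidic stalk that recruits elongation factors and the 5S particle, which is built from 5S rRNA with Rpl5 and Rpl11. Its proteins are needed in equal amounts, except for the stalk proteins Rplp1 and Rplp2, which sit on the ribosome in pairs, and many are imported into the nucleolus, where nucleolin acts, before they are assembled. Vertebrate ribosomal protein mRNAs typically begin with a cytosine followed by a run of pyrimidines, the terminal oligopyrimidine (5′TOP) motif, through which mTOR and Larp1 regulate their loading onto ribosomes.

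The start of the mRNA is the feature by which this family is usually defined, so the annotated starts were read first. Start regions were found for 34 of the 45 members in the RefSeq table of build GRCm38.p6, which holds 27025 genes. A run was counted where the first transcribed base was C and at least 4 bases after it were C or T, on the strand of the gene; such a run began exactly at an annotated start of 7 of the 34 members (20.6%) and of 813 of all genes (3.01%). When the run was allowed to begin anywhere from 10 bases before to 10 bases after the start, 20 of the 34 members (58.8%) and 34.4% of all genes held one. The 7 members with a run at the start itself follow with 10 bases before the start and 20 from it onward, the run in capitals.
Rpl14: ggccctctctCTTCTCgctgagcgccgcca
Rpl15: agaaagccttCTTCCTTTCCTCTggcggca
Rpl28: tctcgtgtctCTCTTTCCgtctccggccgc
Rpl35: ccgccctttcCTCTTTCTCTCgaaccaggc
Rpl35a: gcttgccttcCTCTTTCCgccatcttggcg
Rpl38: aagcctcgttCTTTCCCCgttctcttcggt
Rplp2: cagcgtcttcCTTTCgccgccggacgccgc
These windows lie at chr9:120571507-120571536 (Rpl14, plus strand), chr14:18270967-18270996 (Rpl15, minus), chr7:4792955-4792984 (Rpl28, plus), chr2:39005112-39005141 (Rpl35, minus), chr16:33056472-33056501 (Rpl35a, plus), chr11:114668570-114668599 (Rpl38, plus) and chr7:141447641-141447670 (Rplp2, plus). Counted from the annotated start, the longest run, 13 bases, was that of Rpl15, and the shortest, 5 bases, that of Rplp2. In each sequence, pyrimidines also stand directly before the start, and these are not part of the counted run. A match says only that these letters stand at an annotated start, which need not be the start used in these cells.

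The members were among the abundant mRNAs of these cells, with 1 exception. The level of a gene is given here as CPM, its count scaled to the size of the library with TMM factors, and levels are compared between genes only as CPM per kb of coding sequence. In the cytoplasm of non-treated cells, the level per coding kb was highest for Rpl41, the shortest protein (16500 ± 6760, SD, n = 3), followed by the stalk protein Rplp1 (13100 ± 1912), the stalk-base protein Rpl12 (9509 ± 1069) and the stalk protein Rplp2 (6225 ± 1546). Rpl41 and Rplp1 do not differ beyond their spread. Reads are counted per gene, but this measure divides by the coding sequence alone. The annotated transcript has 544 bases for Rpl41, 75 of them coding, and 499 for Rplp1, 342 of them coding. The top rank of Rpl41 therefore depends on this choice of divisor. At the low end stood Rpl13a (494 ± 12.9), Rpl35a (376 ± 133) and Rpl29 (240 ± 45.9), and the cultures of Rpl35a spread over those of both its neighbours, while Rpl13a lay above Rpl29 in every culture.

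Rpl24, a subunit-interface protein, stood apart from all others. It was listed with 9, 5 and 1 counts in the cytoplasm of non-treated cultures 1, 2 and 4, with 4, 6 and 7 in their polysomes, with 1, 4 and 2 in the cytoplasm of N6L cultures 1, 2 and 3 and with 3, 3 and 2 in their polysomes. In the GENCODE vM21 annotation (mm10/GRCm38), Rpl24 (chr16:55966275-55971435, plus strand) shares 47.0% of its exonic bases with Gm28037, a transcript on the same strand that was listed at 0 in every library. A read that falls on 2 genes is left uncounted by the default setting of HTSeq, so the level of Rpl24 is uncertain; whether this accounts for its counts was not tested. Rpl13a shares 29.4% of its exonic bases with Gm45713 on the same strand, also listed at 0, and its level is uncertain in the same way. On the opposite strand, 9 members overlap protein-coding genes, among them Rpl35 with Wdr38 (66.2% of its exonic bases) and Rpl23a with Tlcd1 (59.7%). The strand setting of the counting is not known, and an effect on their counts was not tested. Rpl24 did not pass the filter on low counts, and the tests below cover the other 44 members.

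**Figure D1:**
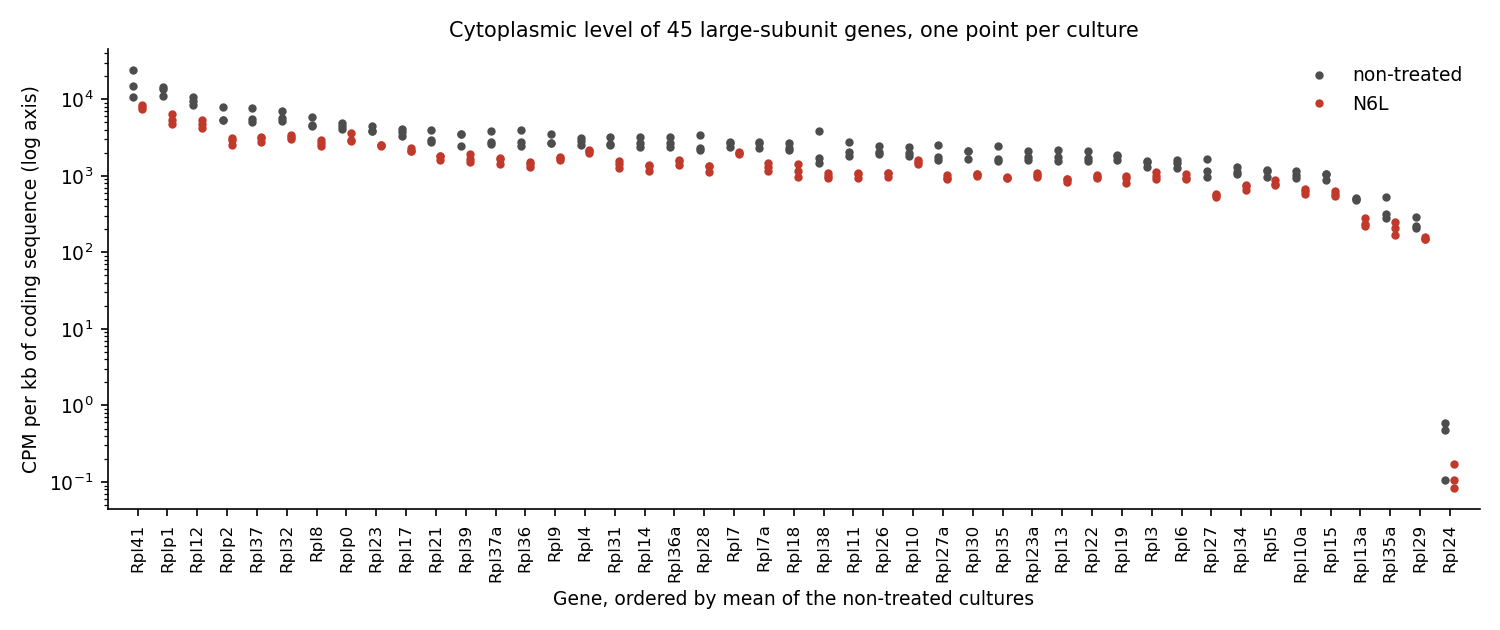
Cytoplasmic level of each of the 45 genes in CPM per kb of coding sequence (log axis), with a point for each of the 3 non-treated (grey) and 3 N6L (red) cultures. All genes but Rpl24 lie above 100, and the N6L cultures lie below the non-treated ones for the 44 tested genes.

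Processed pseudogenes are a known difficulty of this family. The files list 164 pseudogene loci named after 35 of the members, and together these took between 0.00987% and 0.0182% of the counts of a library. Their counts came to 4.56% of those of the parent gene for Rpl3, 1.72% for Rpl34 and 1.09% for Rpl38.

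The genes described most closely are spread over the genome (mm10, GENCODE vM21). The stalk genes are Rplp0 (chr5:115559467-115563727), Rplp1 (chr9:61913284-61914542), Rplp2 (chr7:141447370-141451585) and Rpl12 (chr2:32961559-32965345). Rpl5 lies at chr5:107900502-107909005 and Rpl11 at chr4:136028265-136053428, Rpl4 at chr9:64173375-64178666, Rpl36 at chr17:56613416-56614243, Rpl39 at chrX:37082520-37085402 and Rpl41 at chr10:128548114-128549305.

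The first question was how much of the cytoplasmic and polysomal mRNA codes for 60S proteins. The 45 genes took 6.08%, 5.96% and 7.04% of the counts in the cytoplasm of non-treated cultures 1, 2 and 4, and 4.22%, 3.68% and 3.93% in the cytoplasm of N6L cultures 1, 2 and 3. The treated and non-treated cultures did not overlap, and the mean was 6.36% ± 0.594 (SD, n = 3) against 3.94% ± 0.269. The share of counts on mitochondrially encoded genes also differed without overlap, with 0.835%, 0.454% and 0.966% in the non-treated cytoplasm and 0.242%, 0.189% and 0.121% in the N6L cytoplasm; its part in the result was not tested. In the polysomes the shares of the 60S genes were 6.93%, 6.35% and 7.64% without treatment and 5.56%, 5.45% and 6.60% with N6L. Here the groups overlapped, because N6L culture 3 lay above non-treated culture 2, and the mean was 6.97% ± 0.646 against 5.87% ± 0.637. All these shares are relative to the library; a lower total amount of polysomal RNA would not be seen in them.

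The 33 small-subunit genes gave a reference within each library. The summed counts of the large-subunit genes were 1.17, 1.19 and 1.20 times those of the small-subunit genes in the non-treated cytoplasm and 1.21, 1.23 and 1.24 times in the N6L cytoplasm. In the polysomes the ratio was 1.17, 1.19 and 1.20 in non-treated cells and 1.14, 1.15 and 1.15 in N6L cells. The ratio thus lay above all non-treated values in the N6L cytoplasm and below all of them in the N6L polysomes, by a few hundredths in both cases.

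**Figure D2:**
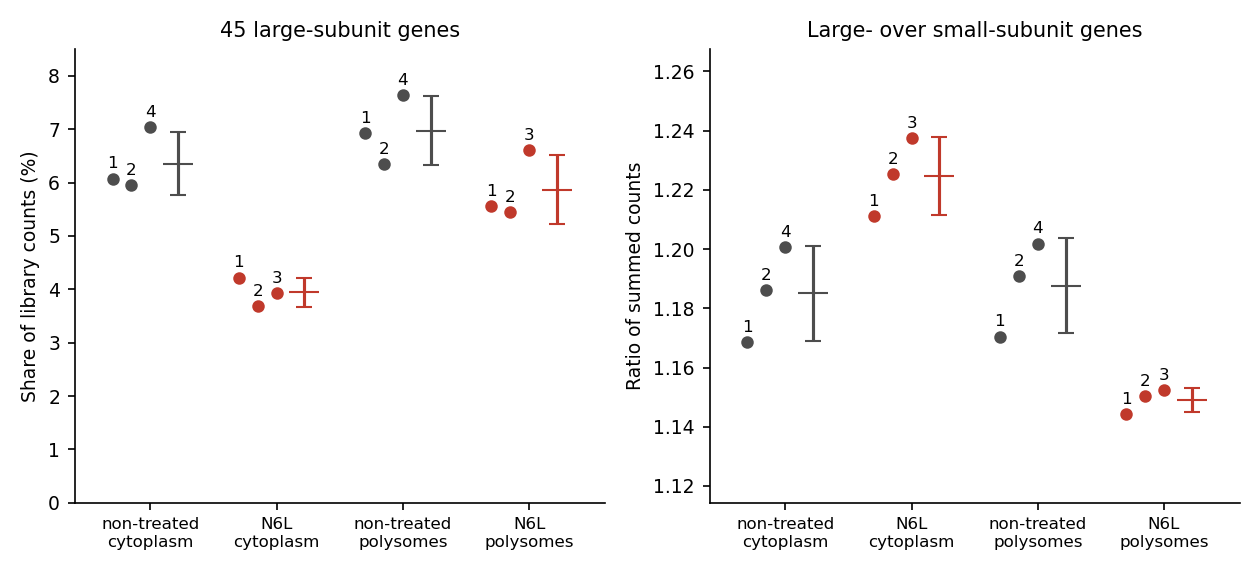
Left, share of library counts on the 45 large-subunit genes (%); right, ratio of their summed counts to those of 33 small-subunit genes (axis not from 0). Points are cultures, marked with their number, and bars show mean ± SD of 3 cultures. N6L cytoplasm is lowest on the left (3.68% to 4.22%) and highest on the right.

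In the cytoplasm, all 44 tested members fell under N6L (edgeR quasi-likelihood test, Benjamini-Hochberg adjusted p under 0.05), where 13.8% of the 13889 genes tested were called lower. The median log2 change was -0.90, against 0.04 for all genes, with a range from -1.26 for Rplp1 to -0.38 for Rpl7. For each of the 44, every N6L culture lay below every non-treated culture, an arrangement seen in 25.6% of all genes. The members move in the same libraries and are not independent of each other. The calls numbered 30 to 41 when any 1 culture was left out, the lowest count coming without N6L culture 2 (5.22% of all genes called lower) and the highest without N6L culture 3 (13.4%), and no tested member had a cytoplasmic change above 0 under any setting tried.

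The proteins of the stalk spread over much of this range. Rplp1, whose pairs with Rplp2 form the flexible stalk, measured 4675, 3751 and 5015 CPM in the cytoplasm of non-treated cultures 1, 2 and 4 and 2168, 1611 and 1844 CPM in N6L cultures 1, 2 and 3. It fell by 1.26 on the log2 scale (SE 0.18, adjusted p = 0.00113 by edgeR), or 2.39-fold, the largest fall of the family in this fit. With the offset for transcript length and GC content described below, Rpl22 fell most (log2 change -0.92) and Rplp1 was at -0.68. Without non-treated culture 1, Rpl38 was the lowest (-1.465). Rplp2 went from 1839, 1840 and 2763 CPM to 1078, 883 and 1019 CPM (log2 change -1.11, SE 0.26, adjusted p = 0.00778 by edgeR). Rpl12, which binds the rRNA at the foot of the stalk, went from 4696, 4183 and 5241 to 2631, 2060 and 2371 CPM, a fall of 2.00-fold (SE 0.18 in log2 units, adjusted p = 0.00238 by edgeR). Rplp0, which anchors the stalk to the ribosome, was reduced less, from 3874, 4295 and 4669 to 3445, 2688 and 2758 CPM (log2 change -0.53, SE 0.16, adjusted p = 0.0281 by edgeR). The call of Rplp0 was lost under 5 of 18 alternatives, in which its log2 change lay between -0.60 and -0.31. Whether Rplp0 differed from its partners in its change was not tested.

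Among the pair that binds 5S rRNA, Rpl11 went from 1096, 983 and 1461 CPM in non-treated cytoplasm to 587, 504 and 560 CPM under N6L (log2 change -1.10, SE 0.24, adjusted p = 0.00559 by edgeR). Rpl5 went from 869, 1061 and 1036 CPM to 779, 674 and 699 CPM (log2 change -0.46, SE 0.15, adjusted p = 0.0385 by edgeR). The call of Rpl5 was lost under 8 of 18 alternatives, in which its log2 change lay between -0.55 and -0.32. The 2 proteins form a joint complex that can bind Mdm2, but their mRNAs fell by unequal amounts in the fit, 2.14-fold for Rpl11 and 1.38-fold for Rpl5; this difference was not tested.

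The proteins of the exit tunnel and its mouth ranged from a log2 change of -0.44 to one of -1.05. Rpl4, which together with Rpl17 narrows the tunnel, had a log2 change of -0.44, Rpl17 of -0.77 and the small Rpl39, which lines the tunnel further down, of -0.89 (SE 0.21, adjusted p = 0.00988 by edgeR). Rpl39 measured 536, 373 and 530 CPM in non-treated cultures and 292, 253 and 232 CPM in N6L cultures. The 6 proteins around the tunnel exit (Rpl19, Rpl22, Rpl23a, Rpl26, Rpl31 and Rpl35), where signal recognition particle and chaperones dock, lay close together, between -1.05 for Rpl26 and -0.84 for Rpl23a.

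The 5 proteins near the peptidyl transferase centre and the transfer RNA sites had a median of -0.71. Rpl10, which reaches towards the catalytic centre and joins the subunit late, was at -0.45, Rpl3 at -0.53, Rpl10a at -0.71, Rpl8 at -0.87 and Rpl36a at -0.87. At the subunit interface, Rpl23 had a log2 change of -0.68. Rpl41, a peptide that bridges the subunits and is encoded by 75 bases without the stop codon, went from 811, 1103 and 1798 CPM to 628, 561 and 595 CPM (log2 change -1.06, SE 0.23, adjusted p = 0.00656 by edgeR). Non-treated culture 4 gave more than 2 times the Rpl41 level of culture 1, while the N6L cultures were tight.

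The remaining 22 members, mostly on the solvent side, had a median of -0.95. Rpl36, whose 5′ end was used in a reporter of the study, measured 879, 776 and 1250 CPM in the non-treated cytoplasm and 455, 410 and 483 CPM under N6L (log2 change -1.11, SE 0.29, adjusted p = 0.0146 by edgeR). Rpl38, known for its part in the translation of Hox mRNAs, had a log2 change of -1.22 with a wide error (SE 0.34, adjusted p = 0.0187 by edgeR), because non-treated culture 4 stood at 808 CPM and cultures 1 and 2 at 313 and 359 CPM. Without non-treated culture 4 its change was -0.70. Its call was lost without N6L culture 1 (-1.22, adjusted p = 0.0538 by edgeR) or 2 (-1.31, adjusted p = 0.0618 by edgeR). The smallest change in this fit was that of Rpl7, from 1943, 2218 and 2139 to 1604, 1560 and 1667 CPM (log2 change -0.38, SE 0.13, adjusted p = 0.0357 by edgeR). The call of Rpl7 was lost under 8 of 18 alternatives, in which its log2 change lay between -0.44 and -0.20.

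**Figure D3:**
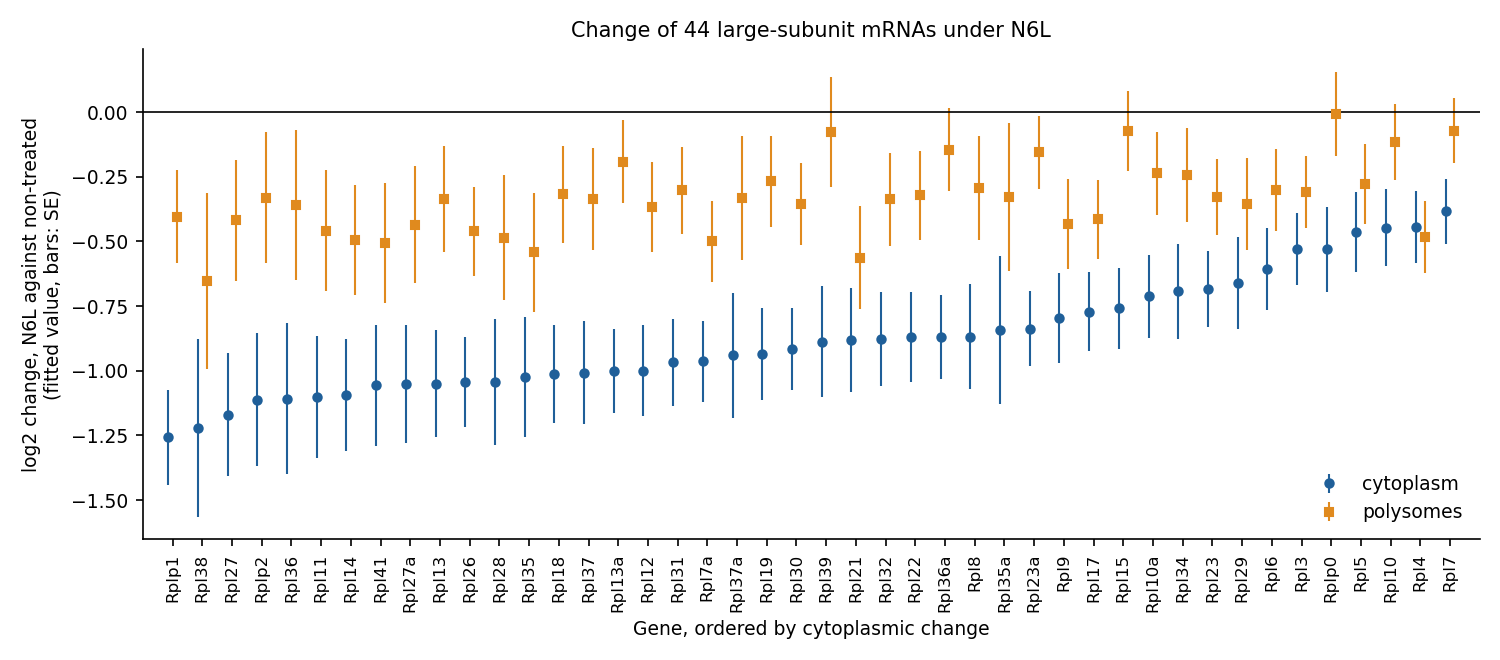
Fitted log2 change under N6L of the 44 tested genes in cytoplasm (blue circles) and polysomes (orange squares), bars ± SE, ordered by the cytoplasmic change. The cytoplasmic values run from -1.26 to -0.38, and all polysomal values but that of Rpl4 lie above their cytoplasmic counterpart.

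The members whose annotated start begins with a pyrimidine run lay among the others in their change. The 7 genes whose starts are printed above, Rpl14 to Rplp2, had a median cytoplasmic log2 change of -1.04 (from -1.22 for Rpl38 to -0.76 for Rpl15), and the 26 tested members with a start region but no run at the start had a median of -0.94, with a range from -1.17 to -0.44. The 11 members with no start region in the table, to which Rplp1, Rpl36 and Rpl7 belong, had a median of -0.87. The ranges overlap widely, and no test was made between these classes. Within 10 bases of the start, 20 of the 34 members held a run. The class with no run at the start thus includes members with one close by. These classes therefore do not separate members with the motif from members without it.

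The size of the cytoplasmic change went with the length of the coding sequence. Across the 44 members, the correlation of the log2 change with log2 coding length was r = 0.56 (Spearman's rho 0.54), a description across genes measured in the same libraries. The 15 members with less than 400 coding bases had a median of -0.97, the 15 with 400 or more but less than 600 of -0.94, and the 14 with 600 or more of -0.66. The correlation with the GC content of the transcript was r = -0.47. Transcript length moved with the treatment in the libraries as a whole: over all genes, log2 CPM changed by 0.26, 0.21 and 0.22 per doubling of transcript length in the N6L cytoplasm, relative to the mean library, and by 0.03, 0.04 and -0.14 in the non-treated cytoplasm. With an offset for transcript length and GC content in each library, 35 of the 44 members were called lower in the cytoplasm (18.6% of all genes called lower), the median change was -0.49, and the correlations were r = 0.24 with coding length and r = 0.07 with GC content. Under this offset Rplp1 had a log2 change of -0.68 and Rpl36 of -0.43, and both were called, whereas Rpl7 (-0.20) and Rplp0 (-0.31) were not. The offset corrects length and GC content together, and the parts of length, GC content and membership of this family in the change cannot be told apart.

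**Figure D4:**
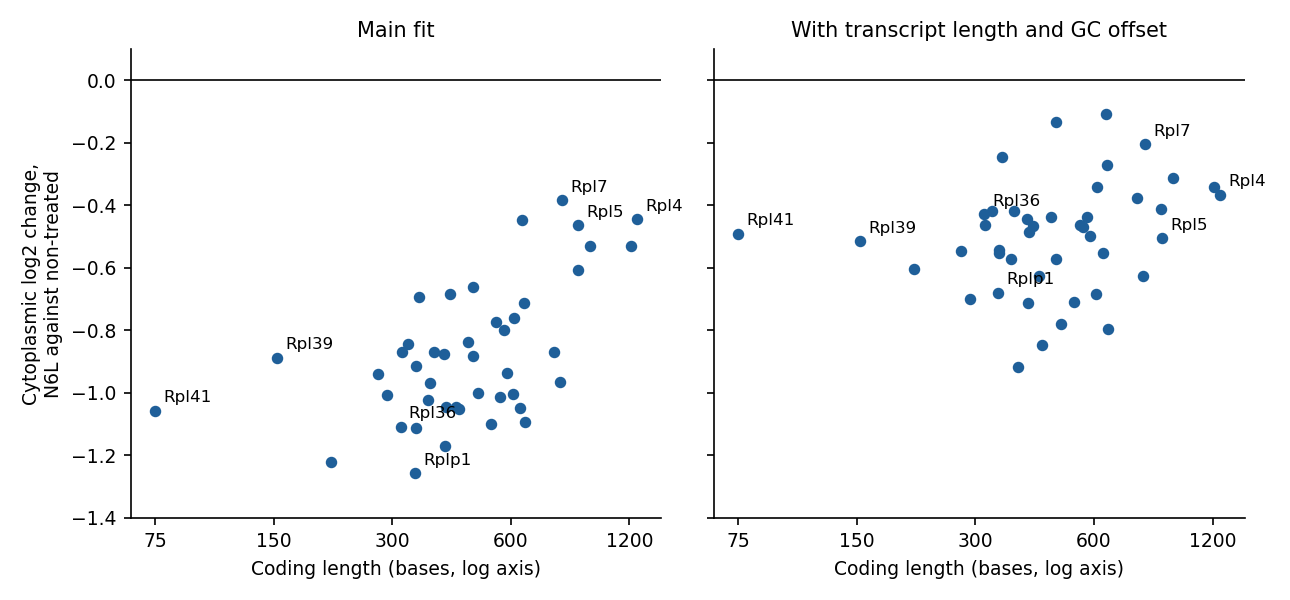
Cytoplasmic log2 change under N6L against coding length in bases (log axis) for the 44 tested genes, without (left) and with (right) the offset for transcript length and GC content. The slope across the family is shallower on the right (r = 0.24 against 0.56), and all 44 points lie below 0 in both panels.

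In the polysomes the members changed less. All 44 had a log2 change below 0, with a median of -0.33 (all genes 0.00), but a single member was called, Rpl4, where 3.66% of all genes were called lower. At an unadjusted p under 0.05, 13 of the 44 were lower (12.1% of all genes). This limit was reached by 2 members without N6L culture 2 (2455 of 14019 genes in either direction). Without N6L culture 3 it was reached by 30 members (3873 of 14088 genes). The N6L cultures lay wholly below the non-treated ones for 5 members, Rpl3, Rpl4, Rpl7a, Rpl17 and Rpl41 (11.9% of all genes). Rpl4 went from 3573, 3422 and 3894 CPM in the polysomes of non-treated cultures to 2869, 2277 and 2648 CPM under N6L (log2 change -0.48, SE 0.14, adjusted p = 0.0444 by edgeR). This call lay close to the threshold and was lost under 11 of 18 alternatives, such as leaving out N6L culture 2, although the log2 change of Rpl4 stayed below 0 in all of them. Between 0 and 3 members were called when any 1 culture was left out (0.121% to 4.93% of all genes called lower), and 7 with an offset for transcript length and GC content (12.3% of all genes called lower).

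At the other end stood Rplp0, with 4450, 4262 and 4626 CPM in non-treated polysomes and 3851, 3951 and 5475 CPM in N6L polysomes, a log2 change of -0.01 (SE 0.16, adjusted p = 0.986 by edgeR). Culture 3 was the highest and the other N6L cultures were below every non-treated one. The same held for Rplp1, at 3980, 3385 and 4470 CPM against 2610, 2679 and 3656 CPM, although its culture 3 stayed within the non-treated range. Rpl36 measured 1071, 1069 and 1981 CPM in the polysomes of non-treated cultures and 775, 852 and 1583 CPM after N6L (log2 change -0.36, SE 0.29, adjusted p = 0.458 by edgeR), with culture 4 and culture 3 the highest of their groups. The lowest fitted change was that of Rpl38, -0.65 (SE 0.34, adjusted p = 0.238 by edgeR), on levels going from 515, 488 and 1033 to 391, 362 and 542 CPM.

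The library of N6L polysomes from culture 3 stood apart in base composition. Over all genes its log2 CPM changed by 0.63 for each 10% of GC content relative to the mean library, where the other 11 libraries lay between -0.38 and 0.20. Without this culture the median polysomal change of the members was -0.50, with 3 members called (2.91% of all genes called lower). Leaving out non-treated culture 4 instead gave a median of -0.20, with 39 members below 0 and 5 above. With each culture left out in turn, the median ran from -0.50 to -0.20.

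The next comparison asked how these mRNAs were distributed between polysomes and cytoplasm. Every library is scaled, so these values are relative to the other genes and do not measure the amount of mRNA in a fraction. In non-treated cells 42 of the 44 members had a positive log2 polysome-to-cytoplasm change, with a median of 0.26 (all genes 0.03). With the offset for length and GC content the median was 0.043, with 29 members above 0 and 15 below. In the fit without the offset, none was called by edgeR, where 0.209% of all genes were called in either direction. DESeq2 called none of the members either (0.111% of all genes higher and 1.94% lower). An unadjusted p under 0.05 was reached by 5 members (13.4% of all genes), and by 20 with the culture as a block (24.7% of all genes). The fitted values ran from -0.18 for Rplp1 (SE 0.18, adjusted p = 0.639 by edgeR) to 0.57 for Rpl34 (SE 0.18, adjusted p = 0.211 by edgeR). Rpl34, an external 60S protein, measured 367, 396 and 459 CPM in the cytoplasm of cultures 1, 2 and 4 and 501, 575 and 732 CPM in their polysomes, so that each culture was higher in polysomes.

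In N6L-treated cells, 41 of the 44 members were higher in polysomes than in cytoplasm, where 18.4% of all genes were called higher. The median log2 change was 0.85 (all genes 0.03) and the highest value was that of Rpl36, 1.25 (SE 0.29, adjusted p = 0.00731 by edgeR), or 2.38-fold. The 3 members not called were Rpl4 (-0.01, SE 0.14, adjusted p = 0.955 by edgeR), Rpl5 (0.37, adjusted p = 0.0708 by edgeR) and Rpl21 (0.48, adjusted p = 0.0681 by edgeR). When culture was added as a blocking term, 43 members were called (26.1% of all genes), Rpl5 and Rpl21 among them (adjusted p = 0.0185 by edgeR for Rpl5). Rpl4 thus measured 2705, 2509 and 2640 CPM in the N6L cytoplasm and 2869, 2277 and 2648 CPM in the N6L polysomes, with no constant direction. The N6L cytoplasmic libraries enter both this comparison and that of treatment in the cytoplasm. Without N6L culture 3 the count of members called higher was 19 (3.09% of all genes), without N6L culture 2 it was 24 (2.56% of all genes), and with the offset for length and GC content it was 13 (9.84% of all genes), with medians of 0.67, 0.90 and 0.32. Under this offset Rpl36 was at 0.37 and the highest value was that of Rpl22, 0.88, while Rplp1, Rpl28 and Rpl29, called higher without it at 0.67, 0.69 and 0.59, were at -0.11, -0.15 and -0.15 and were not called. Across the 44 members, the correlation of this change with GC content was r = 0.40 without the offset and r = -0.59 with it.

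The ratio within each culture shows the spread behind these values. The median log2 ratio over the 44 members was 0.28, 0.24 and 0.28 in non-treated cultures 1, 2 and 4 and 0.57, 0.71 and 1.10 in N6L cultures 1, 2 and 3, while the median over all genes stayed between -0.02 and 0.06. All N6L cultures lay above all non-treated cultures for 35 members, an arrangement found in 15.3% of all genes.

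**Figure D5:**
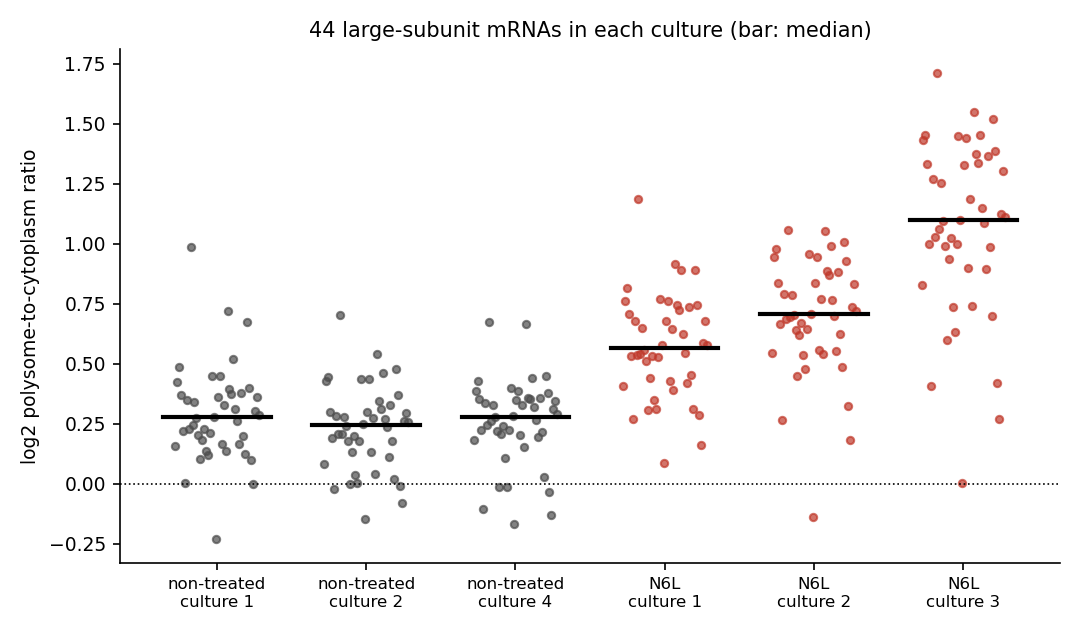
Log2 polysome-to-cytoplasm ratio of the 44 tested genes in each culture, with black bars at the median. The medians lie between 0.24 and 0.28 in the 3 non-treated cultures (grey) and at 0.57, 0.71 and 1.10 in the 3 N6L cultures (red), with culture 3 the highest.

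The change of this ratio under N6L, the translational index, was positive in the fit for 43 members, with a median of 0.56 (all genes 0.01). The median was 0.28 with the offset for length and GC content and 0.36 without N6L culture 3. None was called by edgeR, and the share called among all genes was 0%; the smallest adjusted p was 0.555 by edgeR and DESeq2 called none of the members. At an unadjusted p under 0.05 there were 18 members above 0 (3.18% of all genes), and 35 members when the culture was fitted as a block (21.6% of all genes in either direction). When 1 culture was left out, the count ran from 6 without N6L culture 3 (417 of 14088 genes) to 24 without N6L culture 1 (2546 of 14100 genes). With the offset for length and GC content it was 10 (958 of 13889 genes). For single members the exact permutation test over cultures (2-sided, 3 against 3) cannot give less than 0.1.

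In the fit without an offset, Rplp1 had the highest index, 0.85 (SE 0.26, adjusted p = 0.555 by edgeR). With the offset for length and GC content it was 0.38, and the highest index was that of Rpl39, 0.68. The log2 ratio of Rplp1 was -0.23, -0.15 and -0.17 without treatment and 0.27, 0.73 and 0.99 after N6L (exact permutation p = 0.1, n = 3 per group). No other tested member showed this change of sign in every culture. The sign is relative to the other genes, so a ratio above 0 need not mean that more of the mRNA was in polysomes. With the offset for length and GC content the sign did not change, since the fitted log2 polysome-to-cytoplasm change of Rplp1 was -0.50 in non-treated and -0.11 in N6L cells. Rpl36 went from 0.29, 0.46 and 0.66 to 0.77, 1.05 and 1.71 (exact permutation p = 0.1, n = 3 per group). Rpl39 moved from 0.00, 0.04 and 0.26 to 0.42, 0.94 and 1.37, again without overlap.

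For the remaining 9 of the 44 members the treated ratios did not all lie above the non-treated ones. Rpl41 had log2 ratios of 0.99, 0.20 and -0.03 against 0.91, 0.79 and 0.90 after N6L (exact permutation p = 0.4, n = 3 per group), so that non-treated culture 1 was above every treated one. Rpl5 had 0.34, 0.03 and 0.20 against 0.53, 0.27 and 0.27, with overlap between the groups, and Rpl11 0.26, 0.25 and 0.45 against 0.58, 0.89 and 1.37, without. The lowest index without an offset was that of Rpl4, -0.04 (SE 0.20, adjusted p = 0.942 by edgeR), with ratios of 0.18, -0.08 and -0.01 against 0.09, -0.14 and 0.00.

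Related gene lists were examined in the main fit alone, without the offset for length and GC content and with all cultures kept. Whether their counts depend on either was not tested. Of the 33 small-subunit genes, 31 fell in the cytoplasm (13.8% of all genes), with a median of -0.91; the lowest called was Rps2 (-1.22) and the highest called Rps27a (-0.68). In N6L cells 31 of the 33 were higher in polysomes than in cytoplasm (18.4% of all genes; median 0.86), next to 44 of 44 and 41 of 44 for the large-subunit genes. Of 48 tested genes for the large subunit of the mitochondrial ribosome, 36 fell in the cytoplasm (13.8% of all genes; median -0.76, lowest called Mrpl52 at -1.46, highest called Mrpl45 at -0.41), 3 fell in the polysomes (3.66% of all genes) and 40 were higher in polysomes than in cytoplasm under N6L (18.4% of all genes). These proteins belong to another ribosome.

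The factors that assemble and export the 60S subunit formed a further list. Of 52 such genes, 11 fell in the cytoplasm (21.2%, next to 13.8% of all genes; median -0.18), from Mrto4 (-0.81), a nucleolar relative of Rplp0, to Wdr12 (-0.42). In the polysomes 5 fell (9.62%, next to 3.66% of all genes), from Mak16 (-0.82) to Bccip (-0.61). In N6L cells 12 were higher (23.1%, next to 18.4% of all genes) and 15 lower (28.8%, next to 20.6%) in polysomes than in cytoplasm, from Eif6 (0.90), which keeps the subunits apart, to the very large AAA ATPase Mdn1 (-1.88).

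Rpl22l1, a paralog of the member Rpl22, fell in the cytoplasm (-1.31, SE 0.22, adjusted p = 0.00203 by edgeR) and in the polysomes (-0.93, SE 0.22, adjusted p = 0.0196 by edgeR). Rpl22 itself had changes of -0.87 and -0.32.

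Ncl, the gene of the protein that N6L targets, measured 974, 1556 and 1477 CPM in the non-treated cytoplasm and 1157, 1297 and 1261 CPM under N6L (log2 change -0.11, adjusted p = 0.812 by edgeR). In the polysomes it measured 885, 813 and 923 CPM without and 798, 478 and 231 CPM with N6L (log2 change -0.80, SE 0.31, adjusted p = 0.122 by edgeR), the lowest in culture 3, in which the ratios of the 60S genes were highest. That polysomal library also stood apart in GC content, and its part in these values was not tested. Ncl was called lower in polysomes than in cytoplasm in N6L cells (-1.30, SE 0.32, adjusted p = 0.00837 by edgeR), where 20.6% of all genes were called lower. In non-treated cells it was not called (-0.61, SE 0.31, adjusted p = 0.416 by edgeR).

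The identity of the cells was checked on marker genes. Of 7 ductal epithelial markers 6 passed the filter, with summed levels of 6427 to 10520 CPM and Krt18 the most abundant, while Epcam was at most 0.301 CPM. Under N6L, Sox9 rose in the cytoplasm (log2 change 1.09, SE 0.19, adjusted p = 0.0023 by edgeR) and in the polysomes (1.08, SE 0.19, adjusted p = 0.00514 by edgeR), and Krt7 fell in the cytoplasm (-0.97, SE 0.23, adjusted p = 0.00829 by edgeR); their part in the results was not tested. Acinar markers were represented by Cela1 (median 41.4 CPM) with Cpa1 and Ptf1a at 0 in all libraries, the 3 islet hormone genes were at 0 in all libraries, and the summed fibroblast, endothelial and leukocyte markers reached at most 1.18, 1.03 and 2.23 CPM.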

How the data were processed

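The deposited files hold raw counts of reads per gene, 48 tables for 12 libraries; per the labels and the methods of the authors, polyA+ RNA was sequenced from stranded TruSeq libraries, bcl2fastq 2.18.0.12 and STAR were used on mm10, and HTSeq 0.5.3 counted reads per gene. Which strand and overlap settings the counting used is not given in the sources used here. The 4 technical replicates of a library differed by little more than sampling (chi-square per degree of freedom 1.02 to 1.04) and were summed. The titles and descriptions of 3 of them, from N6L culture 2 cytoplasm, disagree in the culture number; they were placed by title, and 1 alternative leaves them out.

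Genes were filtered with filterByExpr, scaled by TMM and fitted with 4 group means in edgeR 4.0.16 (R 4.3.3, quasi-likelihood test, 8 residual degrees of freedom, Benjamini-Hochberg over 13889 genes, threshold 0.05); DESeq2 1.42.0 was an alternative. Log2 ratios per culture used a prior count of 2. On data simulated for 200 changed genes, the fit recovered 75.5% for the cytoplasm, 70.5% for the polysomes and 48.0% for the translational index; at a simulated log2 change of 1 the shares were 56.1%, 50.0% and 18.4%. Of the listed genes, 50376 were matched to GENCODE vM21. Members and gene lists were chosen with earlier results of these data known. All 45 members may be named; full statistics were given in the cytoplasm for Rpl36, Rpl5, Rpl11, the stalk genes, Rpl39, Rpl41 and, in each comparison, for the highest and lowest member, and for the other lists the highest and lowest called gene. Rpl22l1 and Ncl were given in addition; the list of paralogs and the polysomal calls of the small-subunit list are not reported here.

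The fractions of a culture come from 1 lysate, so the culture pairs them: deviations from the group means correlated at r = 0.36, 0.45 and 0.64 in non-treated cultures and 0.04, 0.20 and 0.23 in N6L cultures. The main fit has no term for the culture. Its p-values for polysomes against cytoplasm and for the index therefore treat the fractions as independent. Only the fits with the culture as a block take the pairing into account.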

Additional observations from a re-analysis of the deposited data

Results flagged for a closer look

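The log2 polysome-to-cytoplasm ratio of Rplp1 was below 0 in all 3 non-treated cultures and above 0 in all 3 N6L cultures, with a difference of the means of 0.845. This opposite direction in every culture, relative to the other genes, drew attention to it. In the fit across all genes the index of Rplp1 was 0.85 with an adjusted p of 0.555 by edgeR, and with the offset for length and GC content it was 0.38. The change of sign was absent with that offset, where the fitted polysome-to-cytoplasm change of Rplp1 was -0.50 in non-treated and -0.11 in N6L cells. Groups of 3 cultures are too small for a test of single outlying samples.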

How the results depend on the processing

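The fall of the members in the cytoplasm kept its direction under each alternative, with 30 to 44 members called (5.22% to 21.3% of all genes called lower). When 1 culture was left out, the medians ran from -1.02 to -0.78. With the offset for transcript length and GC content the median was -0.49. Scaling to library size alone moved the median of all genes to 0.19 in the cytoplasm and -0.11 for polysomes against cytoplasm under N6L, with members at -0.75 and 0.71. In the polysomes, members called numbered 2 without a filter on low counts (2.65% of all genes called lower), 0 with at least 10 counts in every library (3.91%), 4 with DESeq2 (6.47%), 0 with technical replicate a alone (2.94%), 0 with only the groups compared (0.524%), 7 with the offset (12.3%), and 0 to 3 when 1 culture was left out (0.121% to 4.93%). For non-treated polysomes against cytoplasm, the median was 0.19 with library size alone, 0.043 with the offset, and 0.23 to 0.27 when 1 culture was left out. For N6L polysomes against cytoplasm, the offset gave 13 members (9.84% of all genes called higher) and a median of 0.32, and leaving out 1 culture gave 19 to 42 members (2.56% to 21.1%). The median translational index was 0.28 with the offset and 0.36 to 0.68 when 1 culture was left out, and no member was called under any alternative. The members summed to 3.62% of the TMM-scaled counts in the N6L cytoplasm, against 3.94% of the raw counts. The window of 10 bases on either side of the start gave 20 members with a pyrimidine run. The causes of these shifts were not tested.

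With the culture as a replicate block together with the offset, 2 members were called for non-treated polysomes against cytoplasm, Rpl5 higher (1.82% of all genes) and Rplp1 lower (2.79%), with a median of 0.042, 26 for N6L polysomes against cytoplasm (19.0% of all genes called higher, median 0.32), and the median index was 0.28; the block alone moved no count of calls by over 1.5 times. Culture numbers 1 and 2 occur in both treatments, but nothing says that they mark a shared batch; deviations of same-numbered cultures correlated at r = 0.23 and 0.05 in the cytoplasm and 0.30 and 0.01 in the polysomes, and the number shared across treatments as a replicate block gave 2 members called in the polysomes (3.77% of all genes called lower).

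Some fitted log2 changes changed sign. In the polysomes under N6L, Rplp0 was at 0.067 with library size alone, 0.0016 without a filter, 0.00044 with at least 10 counts in every library, 0.0036 with only the groups compared, and -0.19 to 0.084 when 1 culture was left out. Rpl39 was at 0.0053 with library size alone, 0.035 with the number as a replicate block, 0.17 with the offset, and -0.25 to 0.10 when 1 culture was left out. Rpl7 was at 0.015 with library size alone and 0.088 with the offset, and Rpl36 reached from -0.76 to 0.011 when 1 culture was left out. In non-treated polysomes against cytoplasm, the offset without and with the culture as a replicate block gave -0.071 and -0.071 for Rpl12, -0.11 and -0.10 for Rpl39, -0.059 and -0.056 for Rpl4, and -0.15 and -0.15 for Rplp0. Library size alone gave -0.048 for Rpl4 and -0.018 for Rplp0. When 1 culture was left out, values ran from -0.0020 to 0.18 for Rpl39, -0.043 to 0.079 for Rpl4 and -0.011 to 0.088 for Rplp0. In N6L polysomes against cytoplasm, Rpl4 was at 0.014 with RLE size factors, 0.0093 with DESeq2, 0.0052 with technical replicate a alone, and -0.065 to 0.065 when 1 culture was left out, and Rplp1, called at 0.67, was not called at -0.11 with the offset and -0.10 with the replicate block added. The index of Rpl4 ran from -0.092 to 0.061 when 1 culture was left out.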
